A study of Danio rerio with 2 samples.

Results

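In the fertilised zebrafish egg, 192 transcripts stood at a high and nearly equal level at both poles, the animal pole and the vegetal pole. They were selected on the measured levels themselves, so level and ratio are described here without a test. Level was expressed as RPKM, the reads of a transcript scaled by its length in kilobases and by the total reads counted in the library. A transcript was included when its log2 RPKM was at least 8 at both poles and its ratio of vegetal over animal RPKM lay between 0.8 and the inverse of 0.8. The 192 transcripts were 0.384% of the 50038 in the deposited table, and 64.4% of the 298 that reached the level limit at both poles. Of those 298, 106 (35.6%) lay outside the ratio limits, 48 of them with a higher vegetal and 58 with a higher animal level.

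The study cut explants of each pole from AB strain zebrafish eggs between 0 and 20 min after fertilisation and sequenced their RNA. A label describes it as enriched for poly(A), whereas the extraction protocol names only a library kit. Each pole was represented by 1 library, with 16533617 counted reads on the animal side and 17685736 on the vegetal side. No treatment or mutation is named for either group, and the number of eggs behind an explant is not given in the sources used here. With 1 library per pole no difference has a replicate check, and the intervals below are exact 95% intervals that cover counting error only. They take every read as an independent molecule, which reads copied by PCR are not, so they may be too narrow.

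The nuclear genome of the zebrafish egg is silent at this stage, and its nuclear-encoded messenger RNA was made by the mother during oogenesis. Eggs also hold many mitochondria, whose own genome gives rise to polyadenylated messenger RNA. Cytoplasm streams towards the animal pole after fertilisation to form the blastodisc, while the yolk remains mostly at the vegetal side. Some maternal messages are anchored at 1 pole and carry axis or germ line information, whereas others are spread through the egg cytoplasm. RPKM gives each transcript as a share of its own library. An equal RPKM at both poles therefore means neither an equal amount of RNA in the explants nor an equal amount per volume of cytoplasm.

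The deposited table identifies transcripts by Ensembl transcript number, and 0 of the 192 members carry a gene name in it. Of the 50038 identifiers, 0 matched the gene tables used here, which list genes and not transcripts. No gene function is therefore given for any member, markers of either pole or of other cell types could not be looked up, and members that are isoforms or near-identical copies of 1 gene could not be recognised. The table does not say either whether a transcript is of nuclear or of mitochondrial origin. In a comparison added after the values were seen, 9 of the first 10 members by mean RPKM, and 13 of all 192, had a length equal to that of 1 of the 13 mitochondrial protein-coding genes in the RefSeq gene table of assembly GRCz12tu. Such a length was found in 328 (0.656%) of the 50038 transcripts. The first 10 members other than ENSDART00000021620 all have transcript numbers from ENSDART00000093600 to ENSDART00000093625. Members ENSDART00000093596 (975 nt), ENSDART00000093615 (351 nt), ENSDART00000093618 (1381 nt) and ENSDART00000093622 (1821 nt), which are not among these 10, have numbers close to or within that range. None of the members with such numbers shared its length with another member. Equal lengths and close numbers do not identify a transcript by themselves. The mitochondrial origin of these members was not tested, so their origin is not known here.

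The members spanned a wide range of abundance. At the animal pole they ran from 258 to 20653 RPKM, a range of 80.1-fold, with a median of 416 RPKM and quartiles of 319 and 734 RPKM. At the vegetal pole they ran from 257 to 22107 RPKM, a range of 86.1-fold, with a median of 411 RPKM and quartiles of 310 and 744 RPKM. Most members were thus close to the lower limit of the set, and 33 had a mean level of 1000 RPKM or more. Every member was well counted, with 1557 to 426191 animal reads and 1926 to 522163 vegetal reads.

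**Figure D1:**
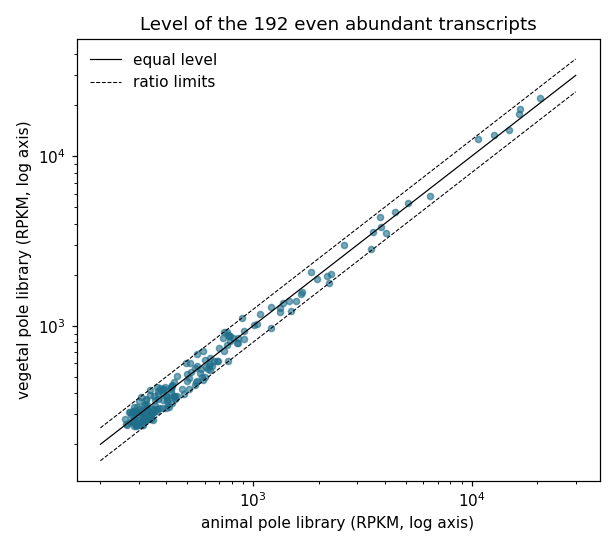
Level of each of the 192 members at the animal pole (x axis, RPKM, log scale) and at the vegetal pole (y axis, RPKM, log scale), each point a transcript, with the line of equal level and dashed lines at the ratio limits. The points crowd below 1000 RPKM, and 6 stand apart above 10000 RPKM at both poles.

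At the top of the set, 6 transcripts exceeded 10000 RPKM at both poles and kept the same order at each. ENSDART00000093612 (684 nt) was the highest, with 20653 RPKM at the animal pole and 22107 RPKM at the vegetal pole, a ratio of 1.07 (1.06 to 1.08). ENSDART00000093606 (1551 nt) followed with 16620 and 19036 RPKM, a ratio of 1.15 (1.14 to 1.15). It was also the most counted member, with 426191 animal and 522163 vegetal reads, which were 2.58% and 2.95% of all reads in the respective library. ENSDART00000093611, at 165 nt the shortest member, had 16532 RPKM at the animal pole and 17693 RPKM at the vegetal pole.

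The other 3 of these 6 were ENSDART00000093609, ENSDART00000093613 and ENSDART00000093625. ENSDART00000093609 (691 nt) was the single transcript of the 6 with a lower vegetal level, at 14821 RPKM against 14219 RPKM (ratio 0.959, 0.953 to 0.966). ENSDART00000093613 (786 nt) had 12626 animal and 13319 vegetal RPKM. ENSDART00000093625 (1141 nt) had 10695 and 12691 RPKM, and its ratio of 1.19 (1.18 to 1.19) was the farthest from 1 among the 6. The counting interval lay to 1 side of a ratio of 1 in each of the 6, since between 45100 and 522163 reads stood behind each value.

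After a gap in level came 4 further members that complete the first 10 by mean RPKM. ENSDART00000021620 (779 nt) had 6464 RPKM at the animal pole and 5828 RPKM at the vegetal pole, a ratio of 0.902. ENSDART00000093600 (1047 nt) had 5102 and 5322 RPKM, and ENSDART00000093617 (297 nt) 4479 and 4698 RPKM. ENSDART00000093623 (519 nt) had 3819 RPKM at the animal pole and 4390 RPKM at the vegetal pole, a ratio of 1.15. Among these 10 members, 8 thus had the higher value on the vegetal side, within the limit that the rule sets.

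The order of the members was similar at both poles, which the limit on the ratio favours in advance. The first 6 members held ranks 1 to 6 at each pole, the first 10 at each pole shared 9 transcripts, and the first 50 shared 49. Across all 192 members Spearman's rho between the levels at both poles was 0.949, a description across transcripts whose ratio had been limited by the choice. The median shift in rank was 10 places and the largest 49 places. Among all transcripts of the table, 9 of the 10 highest by RPKM were members at either pole. Of the first 100, 50 were members on the animal side and 55 on the vegetal side.

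The members held close to the same share of each library. The rule limits the ratio of every member, so the ratio of their summed shares had to lie between the same limits. Together they took 23.8% of the animal reads (23.83 to 23.87%; 3942815 reads) and 24.0% of the vegetal reads (23.999 to 24.04%; 4247968 reads). This near equality was the sum of opposite small differences. The first 10 members by mean RPKM took 8.87% of animal but 9.61% of vegetal reads, whereas the remaining 182 took 15.0% of animal but 14.4% of vegetal reads. The share of the whole set was thus higher on the vegetal side with the 10 members included and lower without them. Of these 10, 9 are among those with a length equal to that of a mitochondrial gene, and whether they are cytoplasmic or mitochondrial RNA was not tested.

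Reads were concentrated in few members. In the animal library 16 members held 50% of the reads of the set, and 112 held 90%. In the vegetal library 15 and 111 members held these shares. The first 6 by RPKM alone held 31.4% of the set's animal reads and 34.3% of its vegetal reads. At the other end, the 96 members with the lowest mean level together took 4.12% of all animal reads and 3.94% of all vegetal reads. The member with the fewest reads, ENSDART00000145524 (330 nt), had 1557 animal and 1926 vegetal reads, or 285 and 330 RPKM.

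Within the limits set by the rule, more members had a lower than a higher vegetal value. The ratio was below 1 in 112 members and above 1 in 80, with a median of 0.961, a log2 ratio of -0.06. It was under 0.9 in 58 members, from 0.9 to 1 in 54, from 1 to the inverse of 0.9 in 50, and above this in 30. A ratio within 0.05 of 1 was found in 48 members. The sign of the median depended on how the libraries were scaled. The median log2 ratio of the 4159 transcripts that had 500 or more reads at both poles was -0.08, and with that median set to 0 the members' median became 0.02.

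**Figure D2:**
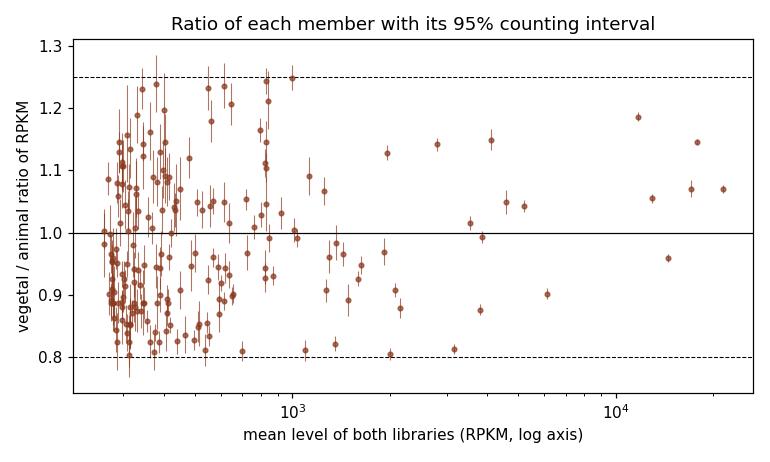
Vegetal over animal ratio of RPKM (y axis) of each of the 192 members against its mean level at both poles (x axis, RPKM, log scale), with exact 95% counting intervals as bars, a solid line at 1 and dashed lines at the ratio limits. Intervals narrow to the right, where reads are many, and 8 of the 10 rightmost points lie above 1.

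Equal in the sense of the rule did not mean equal within counting error. The interval of the ratio included 1 in 22 members, lay wholly above 1 in 69 and wholly below 1 in 101. These counts take the library totals as fixed. Setting the median of well-counted transcripts to 0, as above, adds 0.0753 to every log2 ratio, and the counts were not repeated under it. The upper bound of an interval exceeded its lower bound by 5.99% in the median member, by 0.813% where it was narrowest and by 14.4% where it was widest. A ratio as close to 1 as the 1.04 (1.03 to 1.05) of ENSDART00000093600 was therefore larger than counting error, but how far 2 libraries of the same pole would differ was not measured. Intervals lay inside the ratio limits in 175 members and crossed a limit in 17, of which 9 crossed the lower and 8 the upper.

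The limits of the set cut through a continuous range of values. Just inside the lower ratio limit were ratios of 0.8027, 0.8039 and 0.8072, and just outside it 0.7997, 0.7995 and 0.7968. Just inside the upper limit were 1.2489, 1.2437 and 1.2389, and just outside it 1.2502, 1.2524 and 1.2535. At the level limit, the 3 members with the lowest RPKM at their lower pole had 256.9, 257.9 and 257.9 RPKM. The 3 nearest transcripts below it with a ratio inside the limits had 255.4, 254.6 and 254.0 RPKM.

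A ratio inside the limits was more frequent among abundant transcripts than among the rest. Of 14721 transcripts with at least 1 RPKM at both poles, 68.1% lay outside the ratio limits, against the 35.6% of those that reached the level limit. Transcripts were grouped by the log2 RPKM of the pole where they were lower. The share inside the limits was 24.97% at a log2 RPKM of 0 to 2 (5602 transcripts), 29.8% at 2 to 4 (4639), 38.8% at 4 to 6 (2992) and 47.4% at 6 to 8 (1190). It was 66.7% at a log2 RPKM of 8 to 9 (122 of 183 transcripts), 52.7% at 9 to 10 (39 of 74), 71.0% at 10 to 12 (22 of 31) and 90% above this (9 of 10). The share therefore did not rise at every step, since it was lower at 9 to 10 than at 8 to 9. The 9 members in the highest band are the first 10 members by mean RPKM without ENSDART00000093623, which had 3819 RPKM at its lower pole. Of these 10, 9 have a length equal to that of a mitochondrial gene, and their part in the share of 90% was not tested.

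Counting error widens the ratios of low transcripts, so the shares were also taken over transcripts that had 1000 or more reads at both poles. They were 27.5% at a log2 RPKM of 2 to 4 (138 transcripts), 39.4% at 4 to 6 (1098) and 49.3% at 6 to 8 (1035). From 8 upwards the bands were unaltered, because every transcript there had as many reads. Well-counted transcripts at a low level are long, with a median of 6276 nt at a log2 RPKM of 2 to 4 against 1106 nt at 8 to 9, so that length differed along with level. The part of length in these shares was not tested.

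**Figure D3:**
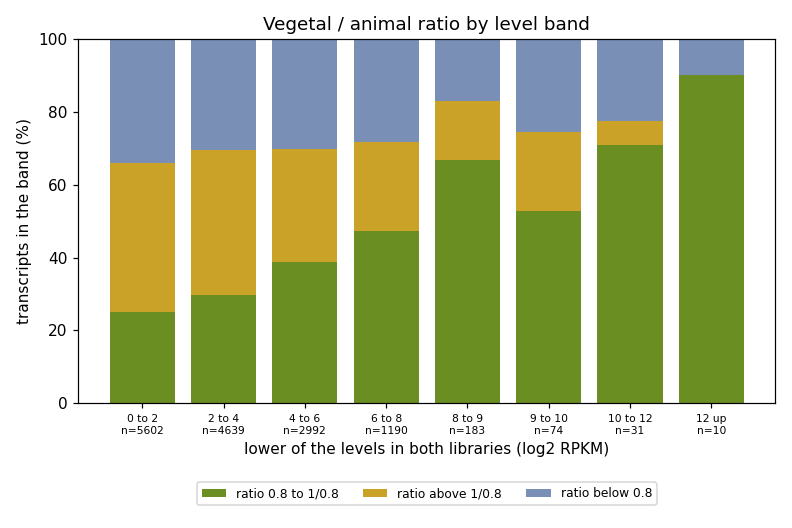
Share of transcripts (y axis, %) with a vegetal over animal ratio inside the limits of 0.8 and its inverse, above them or below them, in bands of the log2 RPKM at the pole where the transcript was lower (x axis), with the number of transcripts under each bar. The share inside the limits is 24.97% in the lowest and 90% in the highest band, with a dip to 52.7% at a log2 RPKM of 9 to 10.

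The direction of the small differences varied with level among the members. Of the 122 members at a log2 RPKM of 8 to 9, 46 had a ratio above 1 and the median was 0.947. Of the 39 at 9 to 10, 21 were above 1 (median 1.01), and of the 22 at 10 to 12, 6 were (median 0.964). Of the 9 members above 12, 7 had a ratio above 1 (median 1.05). These 9 took 8.67% of animal but 9.38% of vegetal reads. They are the first 10 members by mean RPKM without ENSDART00000093623, and 9 of those 10 have a length equal to that of a mitochondrial gene. The part of such members in the pattern by level was not tested. The 1 transcript above a log2 RPKM of 12 at both poles that was no member had 7533 RPKM at the animal pole and 5311 RPKM at the vegetal pole.

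The 106 transcripts that reached the level limit at both poles but lay outside the ratio limits together took fewer reads than the 192 members. By median they held more reads per transcript, at 10779 animal and 12409 vegetal reads against 8931 and 9208 in the members. The 48 with a higher vegetal level held 2.83% of animal and 4.38% of vegetal reads, and the 58 with a higher animal level 7.47% and 4.71%. Their mean level had a median of 600 RPKM, against 408 RPKM in the members. The rule itself bears on this difference in mean level. A transcript with unequal levels passes only if the lower of them reaches the limit, which puts its mean farther above it. At the pole where a transcript was lower, which decides whether it passes, the medians were closer, at 442 RPKM against 386 RPKM in the members.

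By median the members were shorter than the transcripts with at least 1 RPKM and close in length to other abundant transcripts. Their length ran from 165 to 4896 nt with a median of 1082 nt and quartiles of 768 and 1740 nt. The 106 other transcripts above the level limit had a median of 1127 nt, and the 14721 transcripts with at least 1 RPKM at both poles 1519 nt. RPKM divides by length, so length is part of what chose the members and these medians are given as a description.

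The median ratio was lower in the longest than in the shortest members. It was 1.05 in the 15 members under 500 nt, 0.981 in the 72 of 500 to 1000 nt, 0.982 in the 38 of 1000 to 1500 nt, 0.940 in the 37 of 1500 to 2000 nt and 0.925 in the 30 of 2000 nt or more. A ratio above 1 was seen in 8 of the 15 shortest and in 7 of the 30 longest members. Spearman's rho between length and ratio was -0.171 over the 192 members, a weak relation across transcripts of the same pair of libraries. Among transcripts with 1000 or more reads at both poles that were no members, the median ratio was 1.03 under 500 nt (23 transcripts) and 0.912 at 2000 nt or more (1287 transcripts). A short transcript reaches 1000 reads only at a higher RPKM than a long one, so level differed along with length there. The part of level in this contrast was not tested.

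**Figure D4:**
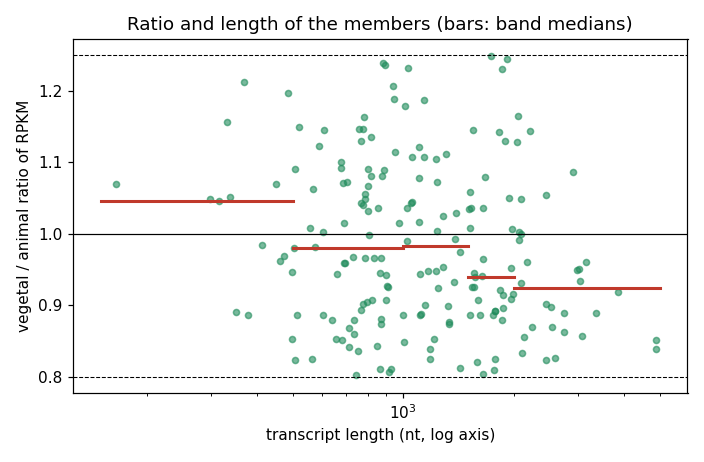
Vegetal over animal ratio of RPKM (y axis) against transcript length (x axis, nt, log scale) for the 192 members, with red bars at the median ratio of 5 length bands, a solid line at 1 and dashed lines at the ratio limits. The band medians run from 1.05 under 500 nt to 0.925 at 2000 nt or more, while single members spread over the whole range between the limits.

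The 3 longest members had lower vegetal than animal levels. ENSDART00000021977 (4896 nt) had 451 RPKM at the animal pole and 383 RPKM at the vegetal pole, a ratio of 0.851 (0.838 to 0.864). ENSDART00000078973 (4893 nt) had 408 and 342 RPKM, a ratio of 0.839 (0.826 to 0.852). ENSDART00000113215 (3846 nt) had 628 and 577 RPKM, a ratio of 0.918. The first pair were also alike in coverage, at 91% and 90% of their length at both poles, but whether they share sequence is not recorded in the table.

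The 3 shortest members lay on the other side of 1. ENSDART00000093611 and ENSDART00000093617 are among the first 10 members by mean RPKM, of which 9 have a length equal to that of a mitochondrial gene. The part of this in the contrast with the longest members was not tested. Besides the 165 nt transcript described above, ENSDART00000093617 (297 nt) had a ratio of 1.05 (1.03 to 1.07). ENSDART00000111140 (315 nt) had 809 RPKM at the animal pole and 846 RPKM at the vegetal pole, also a ratio of 1.05 (1.003 to 1.09). Such transcripts are only a few read lengths long. The deposited depth and coverage gave 51.1 aligned bases per read in the median member on the animal side and 51.0 on the vegetal side.

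Coverage, the percentage of a transcript's length on which reads lie, was not used to choose the members. It was nearly complete in most of them, with a median of 97% at the animal pole and 98% at the vegetal pole, against 98% and 99% in the 106 other transcripts above the level limit. At least 90% was covered at both poles in 160 of the 192 members, and the deposited value was 100% at both in 40. In the 106 other transcripts these counts were 85 and 20, so nearly complete coverage was not particular to the members. The mean depth over the covered part ran from 220 to 18000 reads at the animal pole and from 230 to 20000 reads at the vegetal pole.

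Coverage was similar at both poles. It was equal in 84 members, higher on the vegetal side in 70 and higher on the animal side in 38, with a median difference of 0 percentage points. The difference was at most 2 percentage points in 142 members (74.0%), and in 65 (61.3%) of the 106 other abundant transcripts. A difference of 10 percentage points or more was seen in 8 members and in 10 of the 106. The percentages of the members are deposited as whole numbers, so a difference of 1 point is at the limit of resolution.

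**Figure D5:**
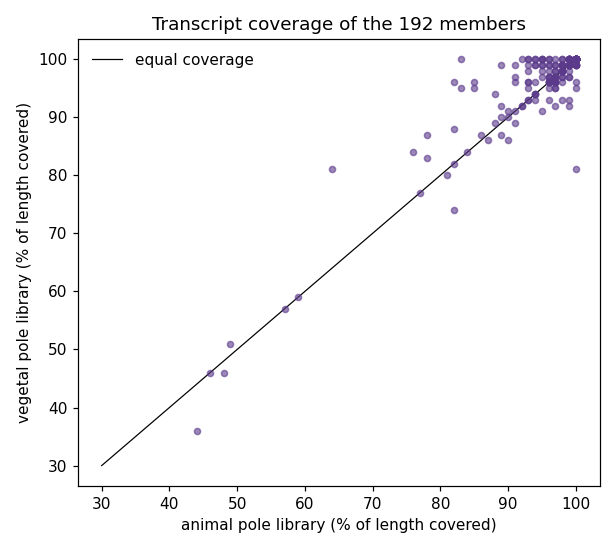
Percentage of transcript length covered by reads at the animal pole (x axis) and at the vegetal pole (y axis) for the 192 members, each point a transcript, with the line of equal coverage. Most points lie at 90% or more on both axes, and 6 lie below 60% on both.

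A few members were abundant by reads yet covered over only part of their length, to a similar extent at both poles. Coverage was under 60% in 6 members, the same 6 in both libraries, and in 0 of the 106 other abundant transcripts. ENSDART00000059321 (1377 nt) was covered over 44% at the animal pole and 36% at the vegetal pole, with 15047 and 15006 reads. Its mean depth was 1300 and 1500 over the covered part, and would be lower over the full length. Depth times covered length gave 52.3 and 49.6 aligned bases per read, near the members' medians of 51.1 and 51.0. ENSDART00000140416 (942 nt) was covered over 46% at both poles, with 4692 and 5967 reads. More than 50% of each of these transcripts was thus without any read.

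ENSDART00000102863 (1213 nt) was covered over 48% at the animal pole and 46% at the vegetal pole, with 6610 and 6027 reads. ENSDART00000135459 (818 nt) was covered over 49% and 51%, and ENSDART00000144695 (569 nt) over 57% at both. RPKM divides the reads by the full annotated length, so the level of these members would be higher if it were taken over the covered part alone. Which part of the transcript was covered, and whether reads from another transcript with the same sequence were counted there, cannot be read from the table.

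In the 5 members whose coverage differed most between the poles, read numbers were close, as the rule requires. ENSDART00000134054 (862 nt) was covered over 100% at the animal pole and 81% at the vegetal pole, with 5538 and 5600 reads. ENSDART00000106474 (711 nt) was covered over 64% and 81%, with 7437 and 6908 reads. ENSDART00000102143 (497 nt) was covered over 83% and 100%, ENSDART00000146764 (654 nt) over 82% and 96%, and ENSDART00000142111 (638 nt) over 83% and 95%. Of these 5, 4 were covered further at the vegetal pole although they had fewer reads there. Single reads are enough to add covered bases, so coverage does not measure the amount of RNA.

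Some members may not be independent of each other, because the table lists transcripts. Among the 192 members, 17 shared their length to the nucleotide with another member, at 8 lengths, and 0 shared both length and read numbers. The closest pair, at 1868 nt, were ENSDART00000008158 and ENSDART00000148447. The former had 9812 animal and 9594 vegetal reads and the latter 9756 and 9357, a difference of 1.01-fold and 1.03-fold. The other pairs of equal length differed by between 1.26-fold and 3.42-fold in animal reads. Whether any such pair shares a gene was not tested. Equal length is not the only way in which members could depend on each other. Whether the 13 members with a length equal to that of a mitochondrial gene share an origin was not tested either.

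The authors' deposited table of differences, with 1643 transcripts at an FDR under 0.05, listed 0 of the 192 members. This follows from the choice, since the smallest absolute log2 fold change in the authors' deposited table was 1.99, far beyond the ratio limits. Of the 106 other abundant transcripts, 4 were in the authors' deposited table, 1 higher on the vegetal side and 3 higher on the animal side. For scale, the 1643 listed transcripts stand against 50038 in the table of reads. No contrast is drawn from the 4. The deposited FDR rests on 1 library per pole, so it does not measure the spread between libraries of the same pole.

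Both transcripts that the table does name, which are often used as reference genes, fell outside the set by level and by ratio. beta actin1, a cytoskeletal actin, had 29.6 RPKM at the animal pole and 80.1 RPKM at the vegetal pole. gapdh, a glycolytic enzyme, had 46.1 and 106 RPKM. Their ratios were 2.71 and 2.31.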

How the data were processed

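The values come from 2 RNA libraries, 1 per pole, enriched for poly(A) according to 1 label, grouped by the tissue subtype in the labels. The authors deposited, per the file headers, a count of mapped reads for every Ensembl transcript, the percent of its length covered, its mean depth (a coverage signal) and its RPKM. The submitters' processing notes name the genome build Zv9. No aligner or counter is named, nor how strand and shared reads were handled. The deposited table of differences holds a log2 fold change, a log2 abundance, a p-value and an FDR for each transcript, and the submitters' processing notes name edgeR.

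Level was recomputed from reads and column totals, and equalled the deposited RPKM of every member to within 0.000181%. The level limit was 256 RPKM and the ratio limits were 0.8 and 1.25. Ratios carry exact 95% binomial intervals conditional on the reads of both poles, and read shares carry Clopper-Pearson intervals. Alternative scaling used the trimmed mean of edgeR 4.0.16 (R 4.3.3) over transcripts with at least 10 reads. The work ran on Python 3.11.15 (pandas 2.3.3, numpy 2.4.6 and scipy 1.17.1, with plots by matplotlib 3.10.9), and its steps were tested on simulated data. The members and lists were chosen with earlier results of these data known. Named members are the 10 highest, the 3 longest and shortest, the 5 least covered, the 5 with the largest coverage difference and those with most and fewest reads. The pair of equal length, and the comparison of lengths with mitochondrial genes, were chosen after the values were seen. Gene lists could not be used for the members, because 0 transcript identifiers matched the gene tables. The deposited table itself names only 2 transcripts, and 0 members.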

Additional observations from a re-analysis of the deposited data

How the results depend on the processing

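The number of members followed the limits: 381 at a log2 RPKM of 7, 70 at 9, and 104 with a narrower ratio window of 0.9 and its inverse. It stayed within 1.5 times of 192 with a wider window up to 1.5 (255), with trimmed-mean scaling (190, of which 185 were shared), with median centring (202, 181 shared), without the 10 most counted transcripts in the totals (217, 190 shared), with the deposited RPKM and with at least 1000 reads required. The share of animal and vegetal reads was 29.0% and 28.9% at a log2 RPKM of 7, 29.8% and 29.6% with the wider window, and 23.4% and 23.8% with trimmed-mean scaling. Without the members above a log2 RPKM of 12, an alternative chosen after seeing the data, it was 15.2% and 14.6%. The animal share was then the larger, as it was at a log2 RPKM of 7 and with the wider window. Members were 55.6% of the abundant transcripts at a log2 RPKM of 7 and 85.6% with the wider window. The median log2 ratio changed sign under median centring, to 0.0178, since that scaling adds 0.0753 to every log2 ratio. Median length stayed between 1082 and 1107 nt, and median coverage within 1 percentage point, under the alternatives run on them. No paired analysis was possible because there is only 1 library of each pole. For the same reason no library could be left out, and the spread between clutches or preparations is unknown.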
